A study of Mus musculus with 4 samples.

Results

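The genes described here separated the nasal side of the mouse embryonic face from the first arch side. Both nasal libraries, from the lateral and the medial nasal process, were compared with both first arch libraries, from the maxillary and the mandibular process. Levels are given as CPM, the counts of a gene scaled to a library of 1000000 counts, which are not corrected for gene length. A gene was taken as nasal where both nasal libraries reached 5 CPM and the lower of them lay at least 2-fold above the higher first arch library, after 0.5 CPM was added to each value. First arch genes were taken by the mirror rule. This gave 119 nasal genes, 1.04% of the 11427 genes that reached 5 CPM in both nasal libraries. It gave 33 first arch genes, 0.295% of the 11178 genes that reached 5 CPM in both first arch libraries. Together they make up 152 of 43346 gene entries. Membership rests on these same 4 libraries, so the levels and folds of the members describe the choice and were not tested.

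The 4 tissues were dissected fresh from wild-type (WT) embryos at the e11.5 stage and held mixed cell types. Each process had 1 library of total RNA without ribosomal RNA, and neither strain nor the number of embryos was given. The processes of a side are different tissues and not replicates of each other, so no p-value is given, and bracketed ranges are 95% intervals of counting error alone. Where 4 values are given together, the nasal libraries come first (lateral, then medial) and the first arch libraries follow (maxillary, then mandibular). The medial nasal library is titled and described as medial, but the abbreviation in its label is LNP, as for the lateral nasal process.

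The nasal processes surround the nasal pit, whose lining derives from the olfactory placode, a thickening of surface ectoderm that forms olfactory epithelium and the first olfactory neurons. Their mesenchyme comes from cranial neural crest that settles around the forebrain and carries Alx transcription factors. The maxillary and mandibular processes are parts of the first pharyngeal arch, where neural crest mesenchyme expresses Dlx, Lhx and Barx factors and surrounds a core of mesoderm that forms the muscles of chewing.

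Depth was alike in the 4 libraries, at 13216161 to 16163874 counts, so that 5 CPM corresponded to 66.1 to 80.8 counts and 3 counts to 0.186 to 0.227 CPM, the limit that a count of 0 allows. The 7 markers named for the sides were all members, with Alx1, Sp8, Otx2 and Lhx2 nasal and Lhx6, Barx1 and Myog first arch, and since the rule used these libraries this is no independent check of the labels. Markers of other tissues were not even. The summed level of 12 forebrain and midbrain genes was 38.2, 90.0, 13.3 and 5.34 CPM in the 4 libraries, highest in the medial nasal process. In these libraries 1, 1, 0 and 2 of the genes were at 0. The list holds 2 nasal genes, Otx2 at 15.5, 23.8, 0.975 and 0 CPM and Dmrta2 at 10.8, 10.3, 1.62 and 1.46 CPM. The nasal excess of this sum therefore restates the choice of members in part. The 11 lens and eye genes summed to 43.4, 8.17, 18.7 and 5.92 CPM, highest in the lateral nasal process, with 2, 4, 0 and 6 of them at 0. The second arch gene Hoxa2 had 0 counts in both nasal libraries and 0.195 and 6.65 CPM in the maxillary and mandibular libraries. The part these tissues play in the members' levels was not tested, and in bulk RNA fewer cells of a type and less RNA per cell cannot be told apart.

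**Figure D1:**
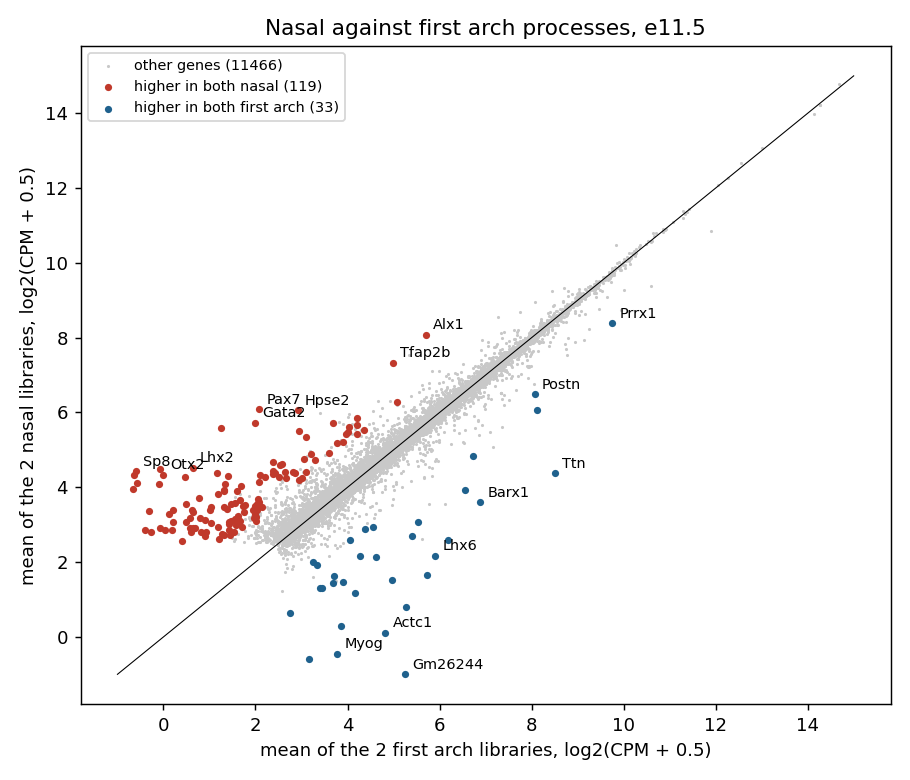
Mean level of each gene in the 2 nasal libraries (vertical, log2 of CPM + 0.5) against its mean in the 2 first arch libraries (horizontal, same scale), for the 11618 genes that reached 5 CPM in both libraries of a side. The 119 nasal genes (red) lie above the line of equal level and the 33 first arch genes (blue) below it, with Gm26244, whose count is uncertain, at the lowest nasal level.

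Sorted by what their products do, the nasal genes comprised 26 transcription factors, 22 neural genes, 16 epithelial genes, 5 matrix genes, 3 ligands or secreted inhibitors, 2 receptors, 9 noncoding genes, pseudogenes or entries without a symbol, and 36 others. No nasal gene was a muscle gene. The first arch genes comprised 11 transcription factors, 9 muscle genes, 4 matrix genes, 2 receptors, 2 noncoding genes and 5 others, with no ligand, neural or epithelial gene among them. Protein-coding genes made up 92.4% of nasal and 93.9% of first arch members, beside 94.4% of all genes at the minimum of 5 CPM on each side. Over those 11618 genes, both nasal values lay above both first arch values for 19.3%, and both first arch values lay above for 11.1%, without regard to size, and the median log2 difference between the sides was 0.02.

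The nasal transcription factors were led by genes of the olfactory placode. Sp8, a zinc finger factor of the nasal pit (ENSMUSG00000048562.6, chromosome 12 of GRCm38, 118846329 to 118852576, plus strand), reached 22.1 and 19.9 CPM in the nasal libraries and 0.325 and 0 CPM in the first arch libraries. The lower nasal value was 61.2 (25.9 to 190.1) times the higher first arch value, a ratio called the separation from here on. Fezf1, a zinc finger repressor that olfactory neurons need to reach the brain, had 13.8 and 16.2 CPM on the nasal side and 0.26 and 0 CPM on the first arch side, a separation of 53.1 (20.4 to 196). For both genes the mandibular library held no count, and the 2 nasal libraries were close to each other.

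Otx2, a homeodomain factor of the anterior head (ENSMUSG00000021848.11, chromosome 14 of GRCm38, 48657677 to 48673819, minus strand), reached 15.5 and 23.8 CPM in the nasal libraries against 0.975 and 0 CPM in the first arch libraries, a separation of 15.9 (9.47 to 28.9). Lhx2, a LIM homeodomain factor of olfactory and eye development (ENSMUSG00000000247.7, chromosome 2 of GRCm38, 38339281 to 38369733, plus strand), reached 18.3 and 26.7 CPM against 1.23 and 0.877 CPM, a separation of 14.8 (9.33 to 24.98). The medial nasal library was the higher of the pair for both genes. Gata2, a zinc finger factor, had 43.4 and 61.3 CPM against 5.59 and 1.39 CPM, and in the first arch it was higher in the maxillary library. Pax6, a paired box factor of eye and olfactory placode, had 16.2 and 10.8 CPM against 3.18 and 0.365 CPM and was higher in the lateral nasal library, where the lens crystallin Cryaa also had 12.7 CPM against 0 in the medial nasal library. Eya2 at 35.9 and 35.3 CPM and Sox2 at 21.8 and 36.02 CPM, both also of placodes, were less sharply separated, by 2.42 (2.04 to 2.87) and 2.33 (1.91 to 2.84).

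Of 25 listed transcription factors of the olfactory placode and anterior head, 16 reached 5 CPM in both nasal libraries. Of these 16, 9 were nasal genes, beside 1.04% of all genes at that minimum. None of the 7 that reached 5 CPM in both first arch libraries was a first arch gene. Without the minimum, 19 of the 23 with at least 1 CPM somewhere had both nasal values above both first arch values. Six3 and Neurog1 were among these at low level, with nasal values between 3.03 and 4.62 CPM and first arch values of at most 0.325 CPM. Over all genes at 5 CPM on a side, 19.3% had both nasal values on top, a share not computed at 1 CPM. Emx2, at 6.19, 7.72, 13.9 and 3.73 CPM in the 4 libraries, did not follow the sides.

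Factors of frontonasal mesenchyme formed a smaller group. Alx1, a homeodomain factor of frontonasal neural crest (ENSMUSG00000036602.9, chromosome 10 of GRCm38, 102998707 to 103030215, minus strand), reached 268 and 272 CPM against 65 and 38.4 CPM, a separation of 4.12 (3.85 to 4.42). Corrected for transcript length, it was the most abundant nasal gene, at 98.0 and 96.1 TPM (transcripts scaled to a total of 1000000) in the nasal libraries. Tfap2b, an AP-2 factor of neural crest, had 110.0 and 211 CPM against 40.6 and 22 CPM, and Foxc1, a forkhead factor of mesenchyme, had 42.7 and 61.97 CPM against 10.1 and 14.8 CPM. Pax7, a paired box factor of neural crest and muscle progenitors, had 113 and 21.6 CPM against 4.03 and 3.44 CPM, and Zic1, a zinc finger factor of the dorsal midline, had 6.81 and 30.7 CPM against 1.105 and 0.658 CPM. Pax7 and Zic1 were strongly unequal within the nasal side, in opposite directions. Of 18 listed frontonasal factors at the minimum in both nasal libraries, 4 were nasal genes (Alx1, Pax7, Tfap2b and Zic1). The share over all genes was 1.04%.

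Alx4, a relative of Alx1 on the same list, was not a member. It had 302, 285, 186 and 209 CPM in the 4 libraries, with both nasal values on top but under 2-fold.

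A further group of nasal transcription factors belongs to neurogenesis. Neurod1, a basic helix-loop-helix factor of differentiating neurons, had 8.41 and 11.7 CPM against 1.105 and 0.219 CPM. Nhlh1 and Nhlh2, of the same class, had 5.63 and 7.94 and 6.99 and 12.9 CPM in the nasal libraries and at most 1.10 CPM in the first arch libraries. Myt1l, a zinc finger factor of postmitotic neurons, had 7.61 and 12.03 CPM against 0.325 and 0.292 CPM, a separation of 23.4 (9.77 to 73.4), and Insm1, a zinc finger factor of neural progenitors, had 5.32 and 8.25 CPM against 0.91 and 0.365 CPM. In Myt1l, Nhlh1, Nhlh2, Neurod1 and Insm1 alike the medial nasal library was the higher.

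**Figure D2:**
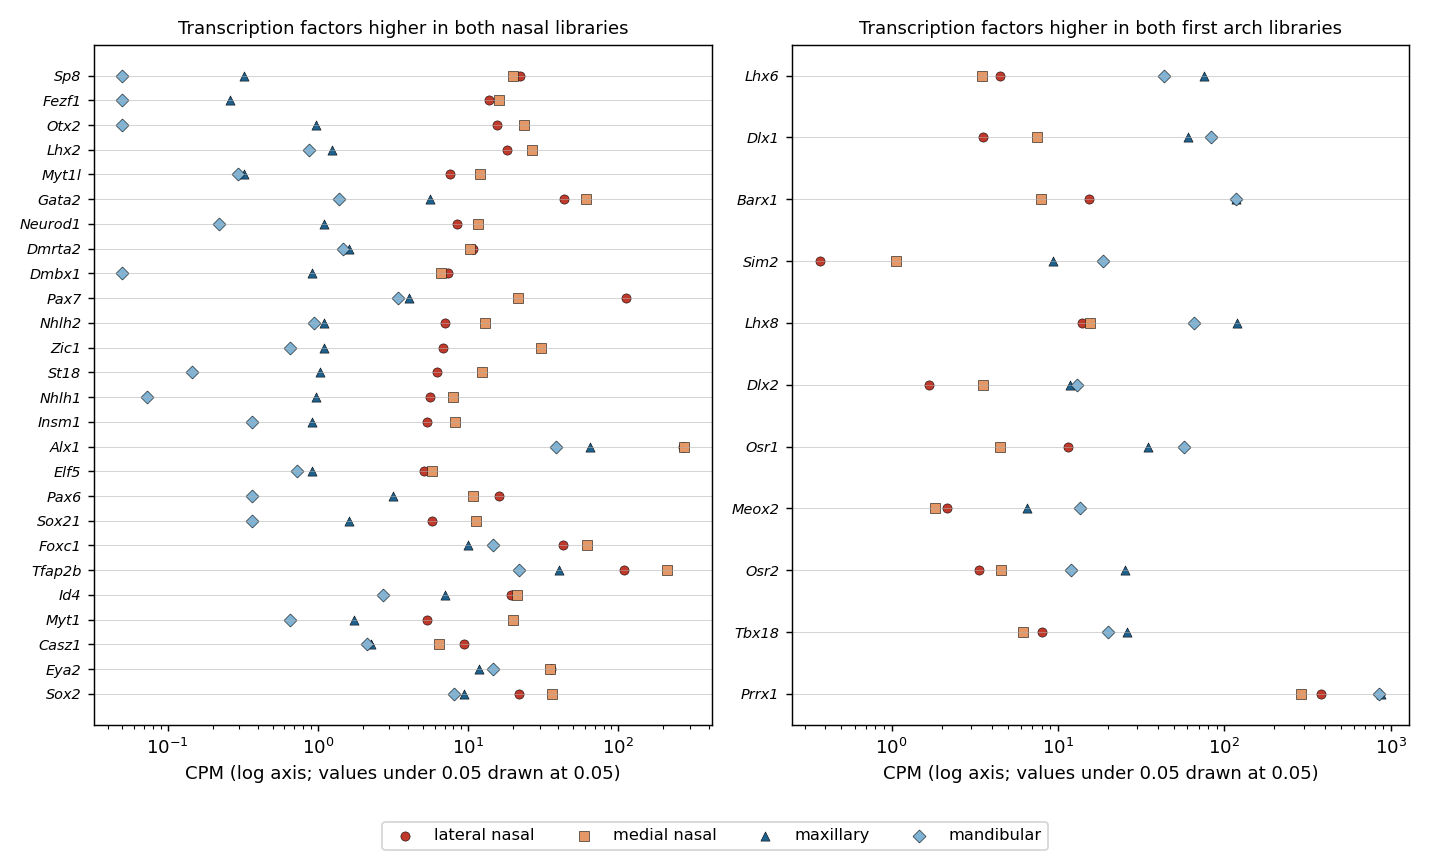
CPM (log axis) in each of the 4 libraries for the 26 nasal (left) and 11 first arch (right) transcription factors. They are ordered by the separation computed after 0.5 CPM was added to each value, with the largest at the top. Nasal factors such as Sp8, Fezf1 and Otx2 had 0 mandibular counts, drawn at 0.05 CPM, whereas every first arch factor had counts in both nasal libraries.

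The first arch transcription factors were led by genes of oral mesenchyme. Lhx6, a LIM homeodomain factor of oral mesenchyme (ENSMUSG00000026890.15, chromosome 2 of GRCm38, 36081953 to 36105408, minus strand), had 75.7 and 43.6 CPM in the maxillary and mandibular libraries and 4.52 and 3.48 CPM in the nasal libraries, a separation of 9.65 (7.56 to 12.5). Its relative Lhx8 had 119.7 and 65.9 CPM against 13.9 and 15.7 CPM, a separation of 4.21 (3.62 to 4.92). Both were higher in the maxillary library. Dlx1 and Dlx2, neighbouring homeodomain genes that pattern the arches, had 60.4 and 83.3 and 11.9 and 13.1 CPM in the first arch and 3.53 and 7.49 and 1.67 and 3.56 CPM on the nasal side. Barx1, a homeodomain factor of molar mesenchyme (ENSMUSG00000021381.4, chromosome 13 of GRCm38, 48662998 to 48666507, plus strand), had 118 and 118 CPM against 15.3 and 7.94 CPM, a separation of 7.67 (6.71 to 8.79), with no difference between the maxillary and mandibular values beyond counting error.

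Sim2, a basic helix-loop-helix PAS factor, had 9.29 and 18.6 CPM in the first arch and 0.371 and 1.06 CPM on the nasal side. Osr1 and Osr2, zinc finger factors of palate and jaw mesenchyme, had 34.7 and 57.5 and 25.4 and 11.9 CPM against 11.51 and 4.46 and 3.34 and 4.54 CPM. The pair was unequal within the first arch, Osr1 being higher in the mandibular and Osr2 in the maxillary library. Prrx1, a homeodomain factor of craniofacial and limb mesenchyme, had 876 and 851 CPM against 381 and 288 CPM. It had the smallest separation of the 11, at 2.24 (2.17 to 2.31), and the highest length-corrected level of the protein-coding first arch genes, at 176.9 and 178 TPM. Meox2 at 6.5 and 13.5 CPM and Tbx18 at 26.1 and 19.9 CPM, factors of mesoderm and mesenchyme, completed the group.

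Of 28 measured transcription factors on the list for first arch mesenchyme, 21 reached 5 CPM in both first arch libraries. Of these 21, 7 were first arch genes (Lhx6, Lhx8, Barx1, Dlx1, Dlx2, Sim2 and Prrx1), beside 0.295% of all genes at that minimum. None of the 13 that reached it in both nasal libraries was a nasal gene. In 13 of the 28, all of which had at least 1 CPM somewhere, both first arch values lay above both nasal values. Over all genes at 5 CPM on a side this share was 11.1%, and it was not computed at 1 CPM. Genes of the distal arch were kept out by low maxillary values. Dlx5 had 2.78, 6.96, 5.20 and 17.2 CPM in the 4 libraries, and Pitx1 had 10.8, 11.8, 15.1 and 124 CPM. Pou3f3 had 23.6, 148, 189.99 and 56.2 CPM, so that its medial nasal value exceeded its mandibular value.

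Muscle genes formed the other large group on the first arch side. Myog, a basic helix-loop-helix factor that drives myoblast differentiation (ENSMUSG00000026459.5, chromosome 1 of GRCm38, 134289989 to 134292548, plus strand), had 5.13 and 21.2 CPM in the maxillary and mandibular libraries and 0.309 and 0.151 CPM in the nasal libraries, a separation of 16.6 (6.82 to 52.5). Myh3 and Myh8, the embryonic and perinatal myosin heavy chains, had 23.2 and 52.7 and 5.13 and 11.8 CPM against 1.299 and 1.21 and 0.247 and 0.0757 CPM. Actc1, an alpha actin of heart and early skeletal muscle, had 13.9 and 41.7 CPM against 0.557 and 0.605 CPM, a separation of 22.98 (11.45 to 53.9). All of these were higher in the mandibular than in the maxillary library.

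The giant sarcomere proteins titin and nebulin followed, Ttn at 185 and 538 CPM against 28.5 and 12.1 CPM and Neb at 24.4 and 80.9 CPM against 2.54 and 2.8 CPM. Ttn was the only muscle gene of the 9 with more than 10 CPM in a nasal library. Acta2, smooth muscle alpha actin, which early striated muscle also expresses, had 12.7 and 48.98 CPM against 1.299 and 3.405 CPM. Myh7, slow myosin, had 5.46 and 6.94 CPM and Tnnt1, slow skeletal troponin T, had 6.24 and 28.4 CPM, against 1.42 and 0.681 and 2.103 and 1.44 CPM.

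Of 51 listed sarcomere and muscle function genes, 14 reached 5 CPM in both first arch libraries. Of these 14, 8 were first arch genes, beside 0.295% of all genes at that minimum. Many others were too low for the minimum: of the 41 with at least 1 CPM somewhere, 34 had both first arch values above both nasal values and 0 the reverse. Over all genes at 5 CPM on a side the shares were 11.1% and 19.3%, and none was computed at 1 CPM. Among 16 myogenic regulators, Myog was the only first arch gene of the 6 at the minimum. Myod1, at 1.82 and 7.89 CPM in the maxillary and mandibular libraries, and Myf5, at 1.23 and 3.87 CPM, did not reach it. Pax7, which is on the same list, was a nasal gene. The summed level of 12 skeletal myoblast markers was 35.6, 18.7, 264.7 and 776 CPM in the 4 libraries. Of these 12, 6 were first arch genes by the same values (Myog, Actc1, Myh3, Myh8, Ttn and Neb). Ttn alone had 28.5, 12.1, 185 and 538 CPM, so this sum largely restates the choice of members.

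**Figure D3:**
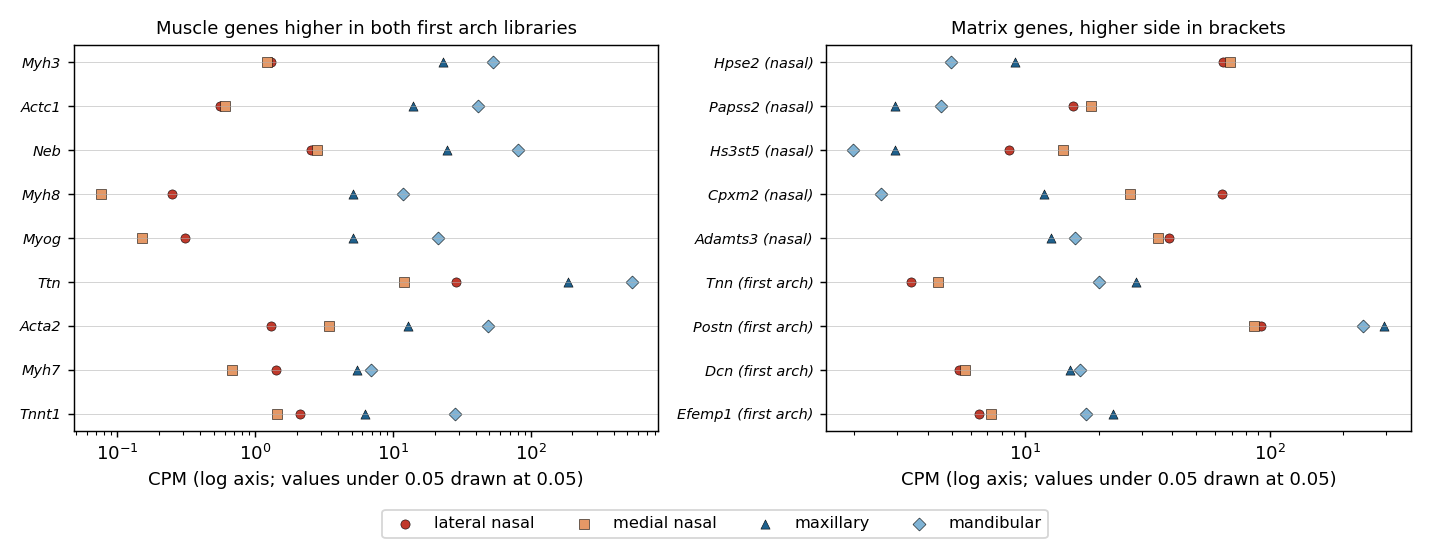
CPM (log axis) in each library for the 9 muscle genes, all of the first arch side (left), and for the 5 nasal and 4 first arch matrix genes (right). Each muscle gene was higher in the mandibular than in the maxillary library, and of the matrix genes Cpxm2 had the widest gap within a side.

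The start regions of a few muscle genes are shown because motifs of known muscle regulators could be found in them by their letters. RefSeq promoter sequences of GRCm38.p6, from 250 bases before to 50 bases after each start, were available for 8 of the 9 muscle genes. The serum response factor motif (CArG box) was found, on either strand, in 1 of these 8 (Actc1) and in 1.57% of all 27025 promoters of the same length. The MEF2 motif was found in 2 of the 8 (Myh8 and Ttn) and in 3.26% of all promoters, and the E-box CAGCTG in 1 of the 8 (Acta2) and in 16.1% of all. The stretches below run from 5′ to 3′ on the strand of the gene and overlap no exon annotated in GENCODE M21, with the CArG box of Actc1 and the MEF2 motifs of Myh8 and Ttn in capitals. The Actc1 stretch precedes a RefSeq start that lies 673 bases from the GENCODE start of the gene. It therefore falls within the gene span annotated in GENCODE M21. A match of letters is a description and does not show that a factor binds.
Actc1, chr2:114052888-114052995, minus strand: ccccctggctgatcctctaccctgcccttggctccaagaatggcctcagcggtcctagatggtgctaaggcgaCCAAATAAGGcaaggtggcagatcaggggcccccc
Myh8, chr11:67277004-67277123, plus strand: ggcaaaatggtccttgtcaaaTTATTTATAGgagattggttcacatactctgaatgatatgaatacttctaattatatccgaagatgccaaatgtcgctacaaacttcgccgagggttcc
Ttn, chr2:76982608-76982727, minus strand: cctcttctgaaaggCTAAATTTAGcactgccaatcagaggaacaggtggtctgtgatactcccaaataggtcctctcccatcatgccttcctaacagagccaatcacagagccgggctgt

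Promoter sequences were matched for 87 of 119 nasal members and for 23 of 33 first arch members. The homeodomain core TAATTA was found in 2 of the 87 and 3 of the 23, beside 5.33% of all promoters. The letters TAATCC, a core bound by Otx factors, were found in 5 of the 87 and 1 of the 23, beside 7.17%, and the palindromic motif of early B-cell factors in 1 of the 87 and 0 of the 23, beside 0.892%. CAGCTG was found in 14 of the 87, or 16.1%, the same share as in all promoters. The MEF2 motif was found in 2 of the 87 (the neural genes Gpm6a and Nfasc), beside 3.26% of all promoters. Of the 23 it was found in 3, Meox2 as well as Myh8 and Ttn. In Acsm4 a match of TAATCC overlapped the early B-cell factor motif. Each motif was counted on its own, and once per promoter.

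Neural genes other than transcription factors numbered 22, all on the nasal side. Gpm6a, a membrane glycoprotein of neurites, had 18.5 and 19.7 CPM in the nasal libraries and 2.53 and 1.75 CPM in the first arch libraries, the largest separation of the group at 7.297 (5.21 to 10.5). The RNA-binding proteins Elavl3 and Elavl4, markers of new neurons, had 12.9 and 27.6 and 22.1 and 28.4 CPM against 2.92 and 0.585 and 6.37 and 3.07 CPM. The first arch values of both were higher in the maxillary library. Slitrk1, a synaptic adhesion protein, had 7.61 and 12.6 CPM against 1.43 and 1.61 CPM. Nfasc, an adhesion protein of axons, had 10.1 and 18.8 CPM against 2.79 and 1.17 CPM. The separations of the 22 ran from 2.06 to 7.30 with a median of 2.58.

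Neuronal genes were not absent from the first arch. Over 13 listed genes of olfactory and other placodal neurons, the summed level was 277, 453, 196.8 and 129.8 CPM in the 4 libraries. Of the 11 at the minimum on the nasal side, 6 were nasal genes, beside 1.04% of all genes. The pan-neuronal tubulin Tubb3 had 103 and 174 CPM in the nasal and 84.8 and 29.2 CPM in the first arch libraries, under 2-fold at its closest. Cranial sensory neuron markers did not follow the sides, with sums of 108, 194.7, 175 and 105 CPM over 11 genes, and none of them was a member. Nefm had 3.40, 19.4, 20.6 and 12.4 CPM in the 4 libraries, lowest in the lateral nasal process.

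Epithelial genes numbered 16, again all nasal, and most belong to tight junctions and the apical cell cortex. The claudins Cldn9, Cldn3 and Cldn11 had 7.86 and 8.02, 7.49 and 7.94 and 14.5 and 24.9 CPM in the nasal and 1.3 and 0.512, 1.75 and 1.32 and 4.81 and 2.78 CPM in the first arch libraries, and Cldn7 was also a member. Ocln, encoding occludin, had 11.7 and 9.76 CPM against 3.18 and 2.49 CPM. Ezr, encoding ezrin, which links actin to the apical membrane, had 75.6 and 78.6 CPM against 35.4 and 30.7 CPM. The keratins of simple epithelia, Krt8 and Krt18, had 49.9 and 51 and 41.9 and 43.7 CPM against 19.2 and 16.8 and 14.6 and 15.5 CPM.

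The general epithelial markers were mixed. Of 16 markers of surface and oral epithelium, all of which reached 5 CPM in both libraries of each side, only Krt8 and Krt18 were members. In 9 of the 16, Cdh1, Cldn6, Esrp1 and Grhl2 among them, both nasal values lay above both first arch values, and in 2 the reverse, beside 19.3% and 11.1% of all genes. Epcam had 65.4 and 54.3 CPM in the nasal and 28.8 and 22.4 CPM in the first arch libraries, under 2-fold at its closest. The keratins of stratified epithelium pointed the other way in the maxillary library: Krt5 had 27.7, 22.9, 47.3 and 30.0 CPM and Krt14 33.7, 24.4, 65.3 and 33.3 CPM in the 4 libraries. Trp63, the basal epithelial regulator, had 42.2, 37.7, 50.3 and 39.5 CPM. The list summed to 542, 489, 438 and 342 CPM.

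**Figure D4:**
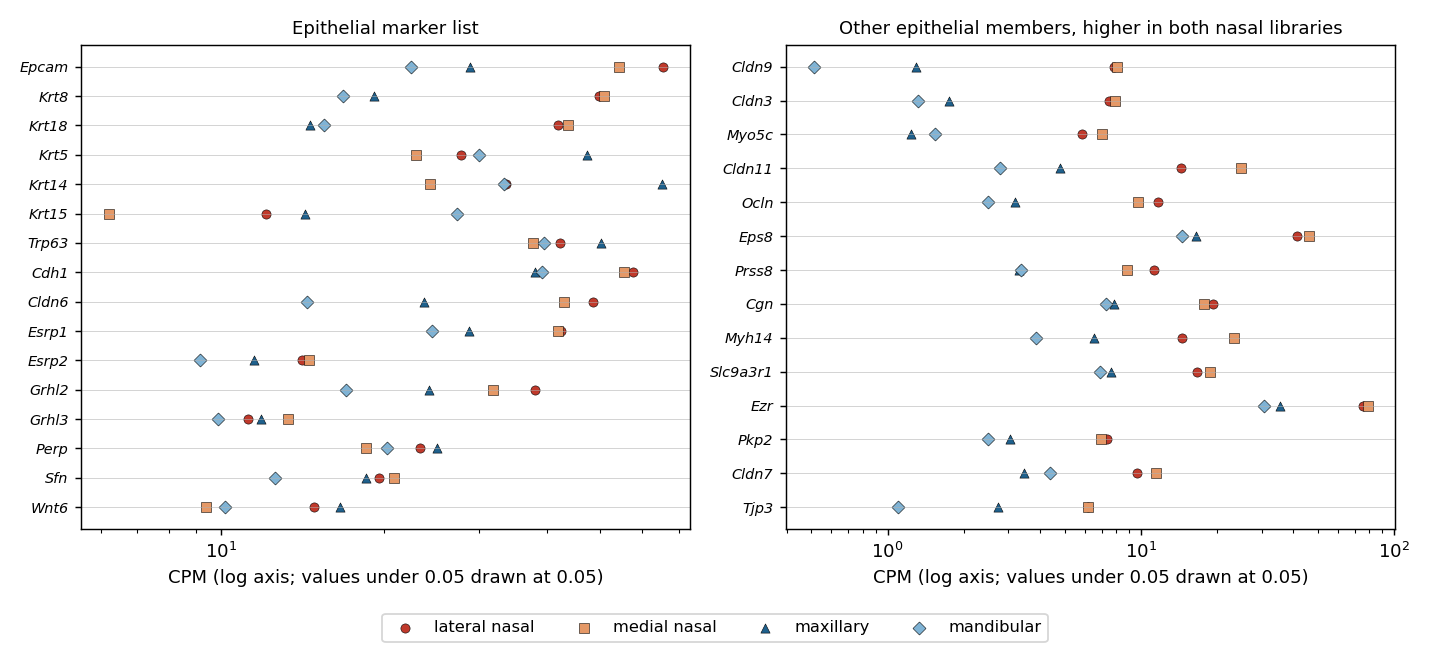
CPM (log axis) in each library for the 16 listed markers of surface and oral epithelium (left) and for the 14 other epithelial nasal genes (right). Krt8 and Krt18 were higher in both nasal libraries, whereas the highest values of Krt5, Krt14 and Trp63 were maxillary.

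The signalling members were 3 ligands or secreted inhibitors and 4 receptors. Fstl5, a secreted follistatin-like protein, had 19.1 and 25.05 CPM in the nasal and 0.455 and 0.439 CPM in the first arch libraries, a separation of 42.02 (20.1 to 105). Wif1, a secreted WNT inhibitor, had 25.1 and 16.7 CPM against 7.08 and 5.92 CPM, and Tgfa, a ligand of the EGF receptor, had 13.5 and 10.7 CPM against 1.43 and 3.95 CPM. Both Wif1 and Tgfa were higher in the lateral nasal library. The receptors were Cxcr4, the chemokine receptor of migrating cells, at 21.7 and 19.8 CPM against 9.1 and 7.09 CPM, and Lrp2, an endocytic receptor of neuroepithelium and other epithelia, at 51.5 and 62.2 CPM against 23.3 and 12.8 CPM. On the first arch side Gria1, a glutamate receptor subunit, had 12.4 and 8.26 CPM against 1.86 and 2.12 CPM, and Gpr17, a G protein-coupled receptor, had 18.7 and 6.21 CPM against 2.598 and 1.82 CPM.

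Counts in the pathway lists are read against the shares over all genes at the minimum, 1.04% nasal and 0.295% first arch genes, and were near them. Of genes at the minimum in both nasal libraries, 0 of 16 FGF genes, 1 of 31 BMP and TGF-beta genes (Fstl5), 1 of 39 WNT genes (Wif1), 0 of 13 hedgehog genes, 0 of 14 retinoic acid genes, 0 of 5 endothelin genes and 0 of 45 axon guidance genes were nasal genes. No gene of these 7 lists was a first arch gene, of 5 to 41 genes at the minimum there. Smaller differences were present. Il17rd, a membrane inhibitor of FGF signalling, had 232 and 259.9 CPM in the nasal and 117 and 124 CPM in the first arch libraries. Wnt5a, a noncanonical WNT ligand, had 371 and 446 CPM against 267 and 161 CPM. Neither reached 2-fold at its closest.

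Matrix genes were members on both sides. Hpse2, a heparanase family protein that binds heparan sulphate, had 64.5 and 68.6 CPM in the nasal and 9.1 and 4.97 CPM in the first arch libraries, a separation of 7.09 (5.94 to 8.52). The enzymes of sulphation, Papss2 and Hs3st5, had 15.7 and 18.6 and 8.599 and 14.2 CPM against 2.92 and 4.53 and 2.92 and 1.97 CPM. Adamts3, a procollagen protease, had 38.9 and 34.9 CPM against 12.8 and 15.9 CPM, and Cpxm2, a carboxypeptidase-like secreted protein, had 63.6 and 26.9 CPM against 11.9 and 2.56 CPM. The first arch matrix genes encode structural and matricellular proteins. Postn, encoding periostin, had 294 and 241 CPM against 92.6 and 86.7 CPM, and Tnn, encoding tenascin N, had 28.3 and 19.96 CPM against 3.403 and 4.39 CPM. The proteoglycan decorin (Dcn) and fibulin 3 (Efemp1) had 15.2 and 16.8 and 22.9 and 17.7 CPM against 5.38 and 5.67 and 6.496 and 7.26 CPM.

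The nasal gene with the largest separation lay outside these classes. Atp8b4, a phospholipid-transporting ATPase (ENSMUSG00000060131.7, chromosome 2 of GRCm38, 126320973 to 126500674, minus strand), had 17.1 and 22.02 CPM in the nasal and 0.13 and 0.146 CPM in the first arch libraries, a separation of 117 (32.03 to 969), the wide interval resting on 2 counts in each first arch library. Acsm4, an acyl-CoA synthetase known from olfactory epithelium, had 14.6 and 18.9 CPM against 0.13 and 0.219 CPM, a separation of 66.6 (22.5 to 325). Slc27a2, a fatty acid transporter, had 5.44 and 8.02 CPM against 0.065 and 0.439 CPM. Cdhr1, a cadherin-related protein of photoreceptors, had 7.42 and 8.55 CPM against 1.23 and 0.0731 CPM. Among the other first arch genes, Mab21l2, a gene of mesenchyme and eye development, had 322 and 231 CPM against 90.8 and 42.1 CPM, Asb4 had 84.6 and 125 CPM against 32.4 and 23.9 CPM, and Shisa3 had 13.8 and 15.1 CPM against 0.9899 and 3.56 CPM.

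Of the noncoding members, 3 lay within or next to a coding member (Gm6776, Gm17028 and AI606473). Six3os1, transcribed opposite the anterior head gene Six3, had 46.6 and 47.5 CPM in the nasal and 3.51 and 0.219 CPM in the first arch libraries, whereas Six3 itself had 3.03 and 4.62 CPM against 0.325 and 0.146 CPM. The library kit keeps strand, but whether the counting used it was not given in the sources used here, so reads of genes that overlap on opposite strands may be shared. This applies also to Gm6776, which lies within Hpse2 on the other strand. Gm17028 overlaps Alx1 on the same strand, so strand could not separate their reads. Of the 152 members, 10 pairs lay within 200000 bases of each other, and all 10 were pairs of the same side, among them Dlx1 and Dlx2, Krt8 and Krt18, Atp8b4 and Slc27a2, and Myh3 and Myh8. The 10 include the overlapping Gm6776 and Hpse2, and Gm17028 and Alx1. No share over other pairs of genes was computed to set beside this count.

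The closest pair without overlap was Lhx8 and the noncoding AI606473, which start 162 bases apart on opposite strands of chromosome 3. AI606473 had 53.8 and 29.4 CPM in the maxillary and mandibular libraries and 5.51 and 6.36 CPM in the nasal libraries, with the same order of libraries on the first arch side as Lhx8. Most of the sequence between them is shown because it separates 2 members of like pattern. It is given on the strand of Lhx8, and none of the 6 motifs searched matched there, so no letters are in capitals.
Lhx8 upstream, chr3:154330660-154330810, minus strand, GRCm38.p6: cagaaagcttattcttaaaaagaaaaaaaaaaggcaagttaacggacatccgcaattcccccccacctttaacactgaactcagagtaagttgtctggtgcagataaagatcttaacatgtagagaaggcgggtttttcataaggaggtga

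The counts of 4 members are uncertain, since the posterior mean count that RSEM also gives differed from the expected count by at least 10% in at least 1 library. Gm26244, a small nuclear RNA gene, had expected counts of 0 and 0 in the nasal and 575 and 521 in the first arch libraries, but posterior mean counts of 374, 396, 859 and 1314. With the posterior means it was no longer a first arch gene, and no fold is given for it. The other uncertain members were the nasal entries C130071C03Rik, Gm13301 and ENSMUSG00000102781.

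Within the nasal side, the members differed more between the 2 libraries than other genes did. The median absolute log2 difference between the medial and the lateral nasal library was 0.33 for the 119 members and 0.17 for all 11427 genes at the minimum. The medial nasal value was the higher in 87 of 119 (73.1%), beside 46.3% of all genes. The members were also lower in level than other genes, with a median of 10.3 CPM in the lower nasal library beside 33.8 CPM, which widens counting error.

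The classes differed in this spread. Of 22 neural genes, 21 were higher in the medial nasal library, 16 with an interval wholly above 1 and 0 with one below, and the median log2 difference was 0.50. The transcription factors had a like median of 0.48 but a wider range, from −2.36 to 2.10. The epithelial genes had a median of 0.06, and none of the 16 differed by over 2-fold. Of 12 forebrain and midbrain markers, Otx2 and Dmrta2 of them members, 9 were also higher in the medial nasal library and 3 in the lateral (En1, Rax and Dmrta2). The widest medial differences included Sox1 at 8.02 against 0.742 CPM, Pou3f2 at 12.7 against 1.42 CPM and En2 at 5.75 against 0.0619 CPM. The medial library was also the higher for 11 of 11 cranial sensory neuron markers. So it was for 11 of 13 listed genes of olfactory and other placodal neurons, some of them members, and 7 of 8 Schwann cell precursor markers. The part of any of these tissues in the medial excess of neural members was not tested.

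Single nasal members with the widest difference were Pax7, 5.23 (4.62 to 5.95) times higher in the lateral library, and Zic1 and Myt1, 4.51 (3.65 to 5.62) and 3.73 (2.91 to 4.81) times higher in the medial library. The neuronal adhesion gene Nrcam and Elavl3 were higher in the medial library, by 2.43 (2.03 to 2.905) and 2.15 (1.81 to 2.56) times. Cpxm2 and the water channel gene Aqp1 were higher in the lateral library, by 2.36 (2.09 to 2.67) and 2.15 (1.74 to 2.66) times.

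Within the first arch, the spread also differed by class. All 9 muscle genes were higher in the mandibular library, 8 of them by over 2-fold, with a median log2 difference of 1.55. The widest were Tnnt1 at 4.55 (3.63 to 5.74), Myog at 4.13 (3.21 to 5.36), Acta2 at 3.84 (3.27 to 4.53) and Neb at 3.31 (2.94 to 3.73) times. Myh7 differed least, its mandibular value of 6.94 CPM being close to its maxillary value of 5.46 CPM. The 11 transcription factors had a median of 0.01, with 6 higher in the mandibular and 5 higher in the maxillary library. This median lay near 0 because opposite differences cancelled, and their median absolute log2 difference was 0.72. The interval of the mandibular over the maxillary value lay wholly above 1 for 4 of the 11 and wholly below 1 for 5. Of the matrix genes 3 of 4 and of the receptors both were higher in the maxillary library, Gpr17 by 3.002 (2.35 to 3.87) times. Over the 33 members the median absolute log2 difference was 0.57, beside 0.17 for all 11178 genes at the minimum. These members were also lower in level, which widens counting error. Their median in the lower first arch library was 17.7 CPM, beside 34.2 CPM for all genes at the minimum.

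**Figure D5:**
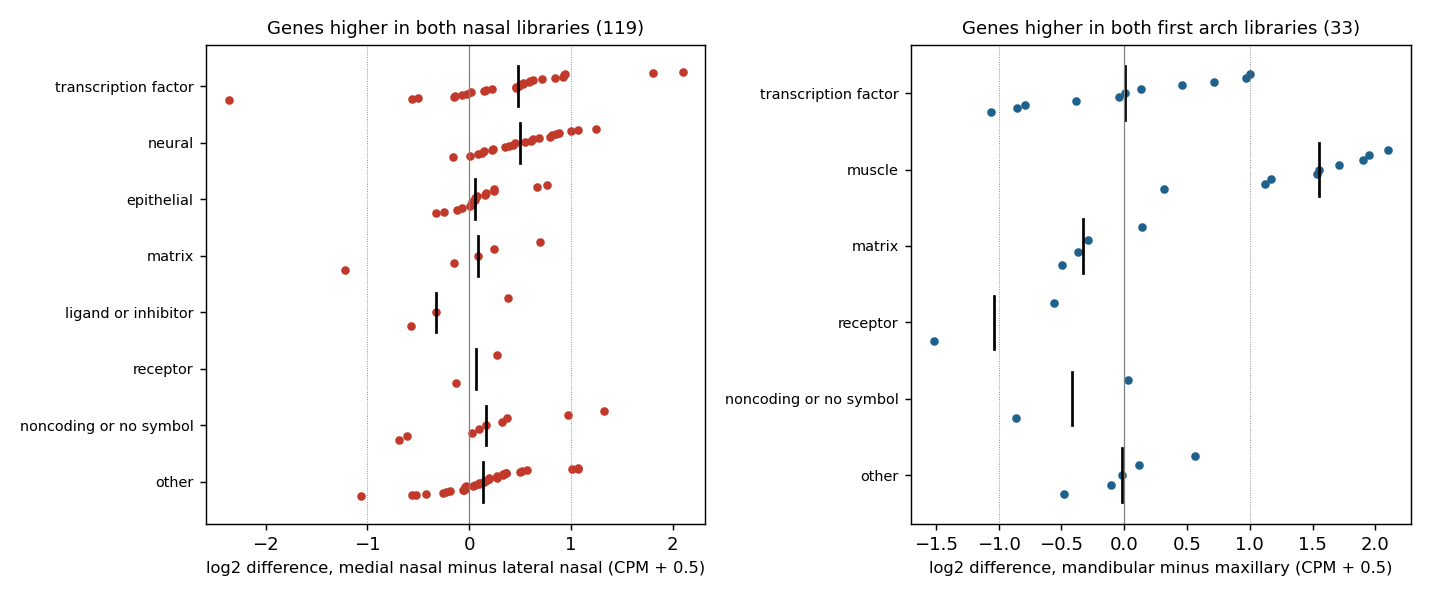
Log2 difference within each side, medial minus lateral nasal (left, 119 nasal genes) and mandibular minus maxillary (right, 33 first arch genes), after 0.5 CPM was added. Each point is a gene, black bars are class medians and dotted lines mark 2-fold, with neural genes mostly right of 0 and all 9 muscle genes right of 0.

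Members lay close on either side of the 2-fold rule. The nasal genes just inside were Syt7, Abcg1 and Trim36, with ratios of 2.002, 2.016 and 2.03 after the added 0.5 CPM, and those just outside were Igfbp7, Clic6 and Lad1, at 1.99, 1.98 and 1.98. On the first arch side Prr16, Gm14226 and Gpr17 were just inside, at 2.01, 2.06 and 2.17, and Smoc2, Twist2 and Meis2 just outside, at 1.93, 1.91 and 1.91. The counts of members follow from the rule and have no natural break at 2-fold.

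The share of nasal members moved with the unit and with the minimum level. By CPM and a minimum of 5 CPM, 78.3% of the 152 members were nasal. With the deposited TPM and a minimum of 5 TPM, 42 nasal and 30 first arch genes were found, of which 58.3% were nasal, and 38 and 18 of them were members by CPM. Fewer genes reached that minimum in both libraries of a side, 9145 on the nasal and 8995 on the first arch side. A minimum of 20 CPM gave 65% nasal genes. Without any minimum the share was 75.7% by CPM and 67.1% by TPM, and 87 nasal and 29 first arch members stayed 2-fold apart by TPM.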

How the data were processed

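RNA was measured in 4 libraries of wild-type mouse facial processes. The authors prepared stranded total RNA libraries with ribosomal RNA removed, aligned reads to mm10 with STAR and estimated counts per gene with RSEM 1.4.1 and GENCODE annotation. Read from the deposited files were the expected count of each gene, not normalized, its TPM as the authors computed it, and a posterior mean count. Expected counts were rounded and scaled to CPM over 43346 gene entries, without 96 spike-in entries, which held 0 counts, and 26248 entries named by a number alone, which held 1 to 5 counts. Symbols and coordinates came from GENCODE M21 (42462 with and 884 without a symbol), and promoters from RefSeq.

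The separation of each gene has an exact conditional (Clopper-Pearson) interval of 95%, for counting error only. With 1 library per process no test against replicates was possible. Members were called by a 2-fold rule at 5 CPM with a pseudocount of 0.5. The members, the gene lists and the alternatives were chosen with earlier results of these data known, and gene classes were assigned by hand after the values were seen, the epithelial and noncoding classes included. Named genes were up to 8 per class with the largest separation, the 7 markers, members of the pathway lists, the genes nearest the threshold, those widest apart within a side, and marker genes that move with a result; other genes were named after their values were seen. The results of some genes taken by this rule are not reported here. The procedure was tested on simulated data. Alternatives were TMM factors (edgeR 4.0.16), size factors (DESeq2 1.42.0), TPM, protein-coding genes alone, pseudocounts of 0.1 and 2, minimums of 1 and 20 CPM and none, a 3-fold rule, removal of uncertain counts and of each library. Python 3.11.15 and R 4.3.3 were used.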

Additional observations from a re-analysis of the deposited data

Results flagged for a closer look

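Entries that carry a number in place of a gene name lie outside the comparison. Beside 1 count in the medial nasal library, they held 4 in the lateral nasal library and 5 and 4 in the first arch libraries, maxillary before mandibular. The last 3 values exceed the 3 counts that a count of 0 allows. That limit is for a single entry, whereas these values are sums over 26248 entries, so exceeding it carries no meaning here.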

How the results depend on the processing

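No paired analysis was possible because each process had 1 library and the labels pair no samples between the sides. Scaling changed little: TMM factors gave 114 nasal and 33 first arch genes and DESeq2 size factors 111 and 33, all of them members, and no scaling moved the median of all genes by over 0.1 on the log2 scale. The deposited TPM gave 42 nasal genes with a minimum of 5 TPM, and 151 nasal and 74 first arch genes without one, an alternative added after the data were seen. A minimum of 1 CPM gave 199 and 65 genes, one of 20 CPM 26 and 14, and none 215 and 69, and a 3-fold rule 51 and 19. Leaving out 1 library loosens the rule by construction, and gave 154 to 357 nasal genes, the most without the lateral nasal library, and 68 to 155 first arch genes, the most without the maxillary library. Pseudocounts of 0.1 and 2 gave 129 and 87 nasal and 33 and 30 first arch genes, protein-coding genes alone 116 and 35, counts without uncertain genes 116 and 32, posterior mean counts 118 and 32, and TPM over protein-coding genes 92 and 35, the last 2 also added after the data were seen. Of the recomputed separations and counts, 1445 moved by less than their counting error or 1.5 times, 205 moved by more, and 0 turned in direction. Depth limits genes near 5 CPM, at 66.1 to 80.8 counts, and without replicates the spread between embryos is unknown.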

Other observations

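Several listed genes outside the 152 members differed between the sides or followed a single process. Aldh1a3, an enzyme of retinoic acid synthesis, had 93.2 and 32.2 CPM in the nasal (lateral, medial) and 16.8 and 3.51 CPM in the first arch libraries (maxillary, mandibular), with both nasal values on top but under 2-fold at the closest. Aldh1a2, an enzyme of the same step, had 22.4 and 30.7 CPM on the nasal side and 67.7 and 52.9 CPM on the first arch side. The 2 enzymes thus had opposite higher sides. Crabp1, a retinoic acid binding protein, had 365 and 386 CPM against 210.2 and 99.6 CPM. Wnt16 had 7.30 CPM in the lateral nasal library and at most 1.13 CPM in the other 3.

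The cartilage regulator Sox9 and its target Col2a1 were highest in the medial nasal library, at 116 and 416 CPM, against 40.9 and 151 CPM in the lateral nasal, 18.5 and 163 CPM in the maxillary and 31.3 and 248 CPM in the mandibular library. Endothelial markers were even, with sums over 9 genes of 288, 312, 309 and 324 CPM, and erythroid genes summed to 5017, 3263, 4637 and 3472 CPM, higher in the lateral nasal and maxillary libraries than in the other 2, so that they did not follow the sides.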
